A study of Mus musculus with 2 samples.

Results

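Pax2-positive cells of the optic cup were picked out of single-cell RNA sequencing of mouse eye cups at e13.5 by a rule on unique molecular identifiers (UMIs), the tags that count each captured transcript once. A barcode, which stands for one cell, was kept with at least 200 detected genes and at most 15% of its UMIs from mitochondrial genes. A kept barcode was a member with 1 or more UMIs of Pax2, UMIs of at least 2 of the 6 eye field and ventral genes Vax1, Vax2, Ntn1, Six3, Six6 and Rax, and 0 UMIs of Col3a1 and Twist1 (mesenchyme), Mlana (pigment cells) and Atoh7 (cells entering neurogenesis). The rule found 96 cells among the 11893 kept barcodes of both libraries. Of these, 44 of 5519 came from the Myrf fl/fl library, 0.797% (0.580 to 1.07), and 52 of 6374 from the Rx>cre Myrf fl/fl library, 0.816% (0.610 to 1.07). The parentheses here and below hold 95% intervals, exact binomial for shares of cells and exact Poisson for sums of UMIs, which cover counting error only.

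Each library was made from 3 pooled samples of e13.5 eye cups, after the cornea, the lens and the optic nerve had been taken off. Both groups carried floxed alleles of Myrf, which encodes a membrane-bound transcription factor, and the mutant group also carried a Cre transgene driven by Rx, which is active from the eye field onward in the neural retina, the pigment epithelium and the optic stalk. The question was how the loss of Myrf from the developing eye changed its cells. Each genotype had 1 library and thus no replicate error, for which reason nothing was tested, the embryos of a pool could not be told apart as replicates, and a difference between the libraries cannot be told apart from a difference between the pools or the preparations.

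Pax2 encodes a paired domain transcription factor that marks the optic stalk, the optic disc and the ventral lips of the optic fissure, where it opposes Pax6 at the border with the neural retina. Vax1 and Vax2 encode homeodomain proteins of the stalk and ventral optic cup. Ntn1 encodes netrin 1, a secreted cue that disc cells offer to the axons of ganglion cells as they leave the eye, and Pax2-positive disc cells are also known as a source of astrocyte precursors.

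The markers of an optic stalk and disc identity were found in a minority of the cells. Vax1 was detected in 13 of 44 control and 15 of 52 mutant cells, and Ntn1 in 7 of 44 and 5 of 52. Vax2 was found in 27 and 40 cells, Six3 in 41 and 51, Six6 in 42 and 50, and Rax, the eye field gene, in 37 and 48. Thus most cells had passed the rule on Six3, Six6, Rax and Vax2, which other progenitors of the retina also express. These 7 genes were part of the rule, so their levels describe the choice and support nothing further. The data therefore do not bear out a stalk and disc label for the set as a whole, and the cells are called Pax2-positive optic cup cells throughout. They were compared with 918 control and 1087 mutant Pax2-negative progenitors, the cells that met the same rule with 0 Pax2 UMIs.

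Pax2 (chromosome 19, 44756045 to 44837871, plus strand, GRCm38) was sparse. It amounted to 77 UMIs over the control cells and 90 over the mutant cells, or 113 and 112 CPM (a gene's UMIs scaled to 1000000 UMIs of the same cells). A single Pax2 UMI was the only one in 62 of the 96 cells, 34 cells had 2 or more, 16 had 3 or more, and the highest control cell had 8 and the highest mutant cell 10. At the edge of the rule, 4 cells had 1 Pax2 UMI and UMIs of just 2 of the 6 genes, and 9 further Pax2-positive cells had UMIs of 1 of the 6 genes and were left out. The exclusion genes removed 43 control and 39 mutant cells that otherwise met the rule, and Atoh7 alone accounted for 21 and 25 of these.

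The depth of a cell moved with its membership. The median member of the control library had 16085 UMIs and that of the mutant library 15083, against 11801.5 and 11266 in Pax2-negative progenitors. Over whole libraries the deposited counts came to 63483835 and 75228861 UMIs, and the kept barcodes had medians of 11377 and 11178.5. The doublet caller Scrublet marked 68 control and 65 mutant barcodes and no member. The libraries shared 72 barcode sequences, and no member was among them.

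Pax2 was found at similar shares in the optic cup of both libraries and was rare in the mesenchymal and red blood cells described below. Among the cells that met the rule with or without Pax2, 4.57% (3.34 to 6.09) of control and 4.57% (3.43 to 5.94) of mutant cells had a Pax2 UMI. In ventral cells of this set, those with Vax2 and without Tbx5, the shares were 5.19% (3.45 to 7.46) and 7.39% (5.33 to 9.93). In dorsal cells, those with Tbx5, the T-box factor of the dorsal retina, and without Vax2, it was found in 0 of 24 and 0 of 34. A count of 0 was here and below taken to allow up to 3 counts, which gives shares of up to 12.5% and 8.82%, so a difference between dorsal and ventral cells was not detectable at this depth. Pigment cells were taken as cells with at least 3 of the 6 genes Pmel, Tyr, Tyrp1, Dct, Mlana and Slc45a2 and without Pax3. They had Pax2 at 6.88% (3.90 to 11.1) and 9.09% (4.79 to 15.3). Cells with Atoh7 UMIs had it at 2.89% and 2.73%.

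The background of free RNA was read from cells that should lack Pax2. Mesenchymal cells were taken as cells with Col3a1 and Twist1 and with UMIs of fewer than 2 of the eye field and ventral genes. They had a Pax2 UMI in 0.176% of 1136 control and 0.141% of 1415 mutant cells, at medians of 13947 and 13165 UMIs. Red blood cells had it in 0 of 221 and 1 of 506, at medians of 22489 and 22788.5 UMIs. The optic cup shares were thus well above the shares in these cells, whose medians were as deep or deeper. Cells with Col3a1, Twist1 and 2 or more of the eye field and ventral genes had been left out. These may hold more free RNA of the optic cup, and the background in them was not tested. When each cell was thinned to 3000 UMIs at random, the optic cup shares came to 1.93% (1.13 to 3.08) and 1.44% (0.806 to 2.36), and the mesenchymal shares to 0.0901% and 0%. The ventral shares came to 2.02% (0.975 to 3.69) and 1.73% (0.796 to 3.27), near those of the whole optic cup. Before thinning the ventral cells had been deeper, at medians of 14384 and 13599 UMIs against 12107.5 and 11433.

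**Figure D1:**
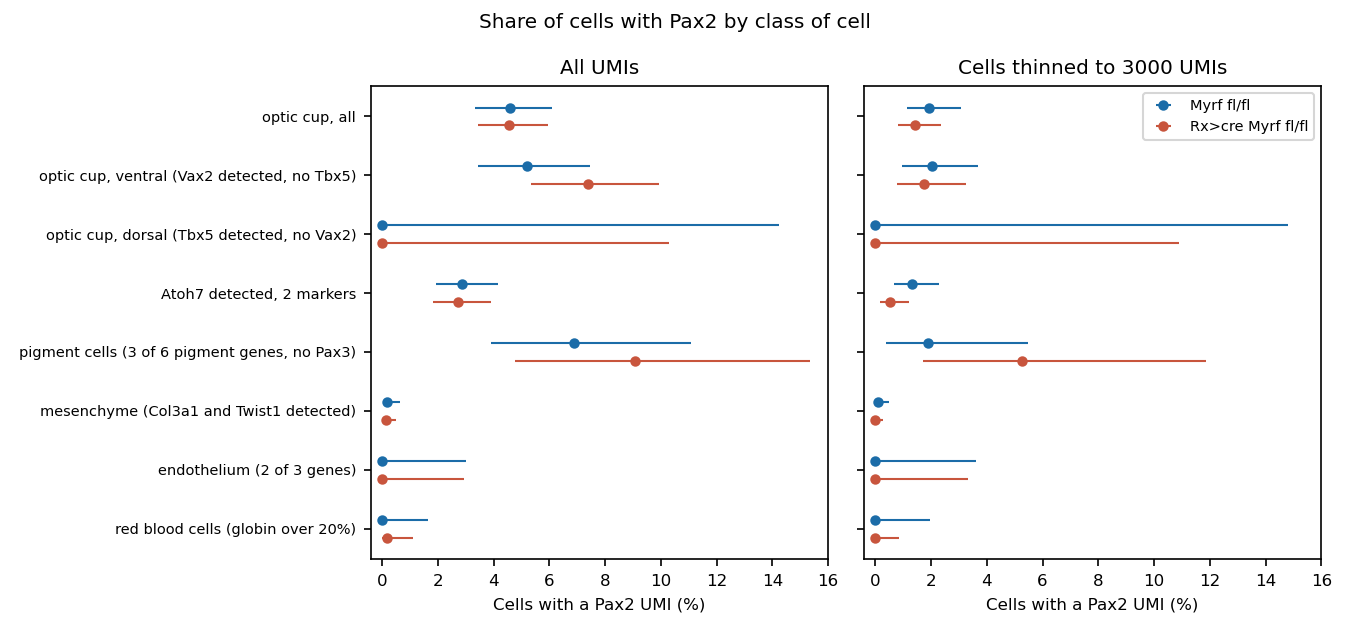
Share of cells with a Pax2 UMI (x axis, percent) in 8 classes of cells (y axis) of the Myrf fl/fl library (blue) and the Rx>cre Myrf fl/fl library (red), with all UMIs (left) and after thinning to 3000 UMIs per cell (right). Points are shares and bars their exact 95% binomial intervals, and the optic cup as a whole, its ventral cells and the pigment cells lie above mesenchyme, endothelium and red blood cells in both libraries, whereas the few dorsal optic cup cells are at 0%.

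Cells with more Pax2 UMIs differed in which markers accompanied it. Ntn1 was detected in 1 of the 62 cells with 1 Pax2 UMI, in 2 of 18 with 2, in 6 of 11 with 3 to 4, and in 3 of 5 with 5 or more. Rax ran the other way and was found in 60 of 62, 17 of 18, 6 of 11 and 2 of 5 cells. Vax1 was found in 14 of 62, 6 of 18, 6 of 11 and 2 of 5. All of these genes belong to the rule, and the counts are given as a description.

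**Figure D2:**
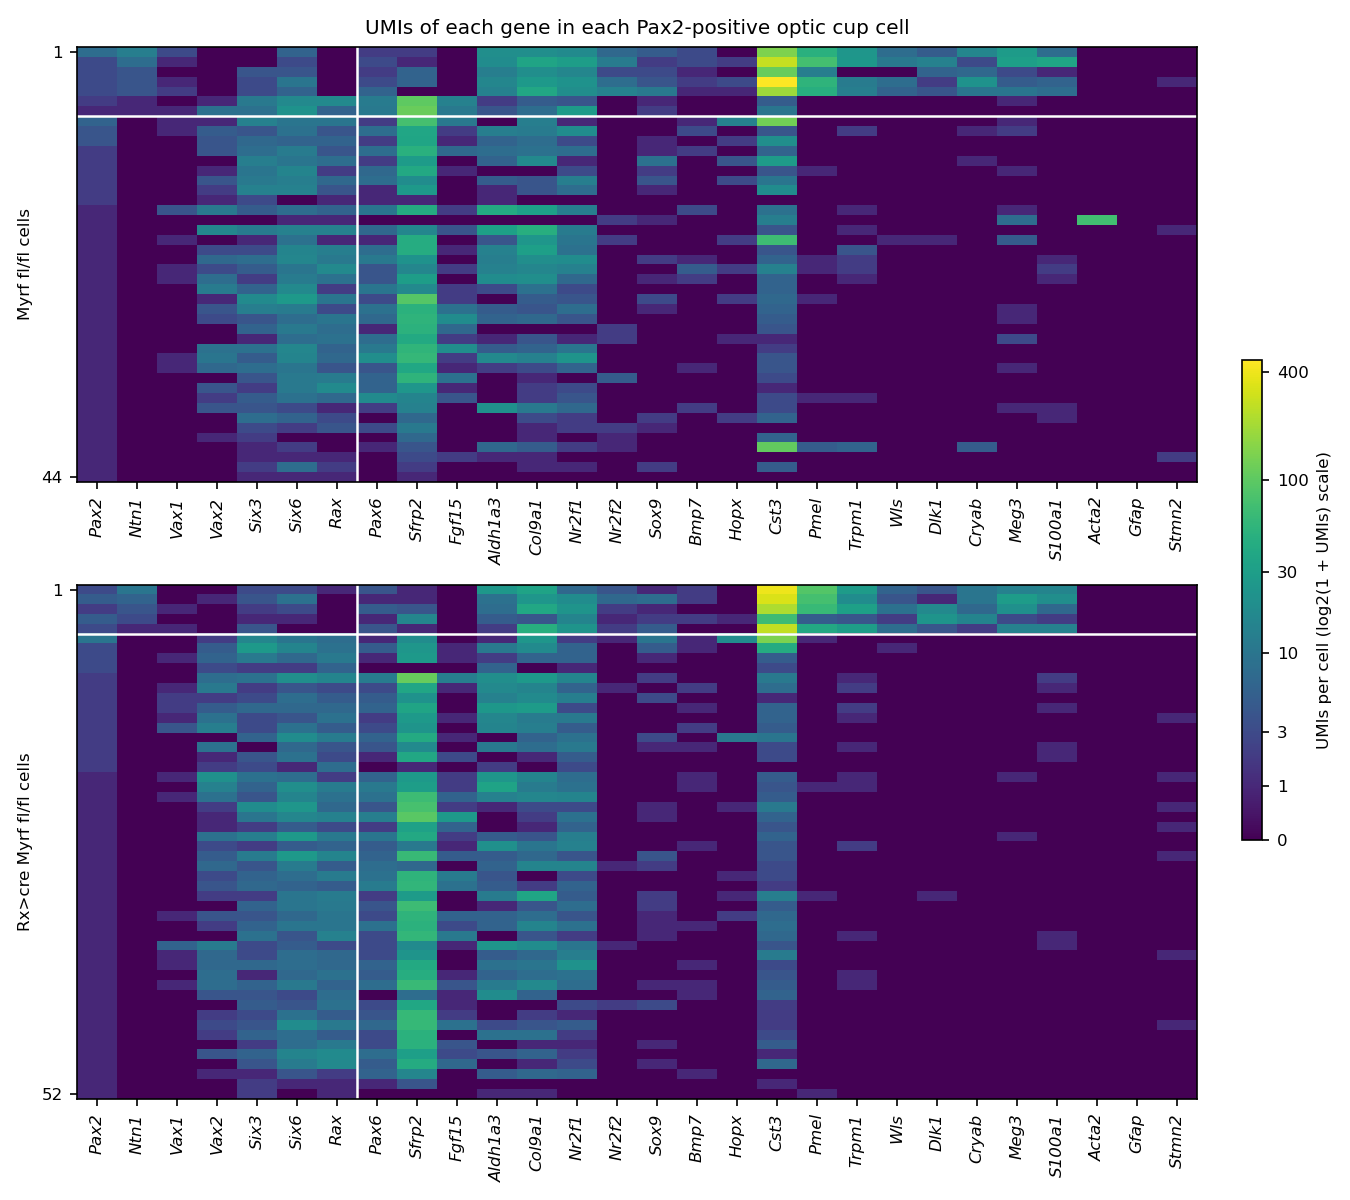
UMIs of 28 genes (columns) in each of the 44 Myrf fl/fl cells (top) and 52 Rx>cre Myrf fl/fl cells (bottom), with colour on a log2(1 + UMIs) scale. Rows are ordered by Ntn1 and then Pax2 UMIs, the horizontal line separates cells with and without Ntn1, and the vertical line sets apart the 7 rule genes. The upper rows hold Cst3, Pmel, Trpm1, Wls and Dlk1 with little Rax, the rows under the line hold Sfrp2, Rax and Six6, and 1 control row holds all Acta2 UMIs.

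The 96 cells were thus of more than one kind, and the cells with Ntn1 stood apart on genes outside the rule. Of the 12 Ntn1-positive cells, 10 carried Pmel, which encodes the fibril protein of the pigment granule, at 13 to 74 UMIs in 5 control cells and 5 to 89 UMIs in 5 mutant cells. Among the 84 cells without Ntn1, 10 had Pmel, at no more than 5 UMIs. The same 10 cells carried Dlk1, a membrane-bound Notch ligand relative, and Cryab, a small heat shock protein, which were found in 2 and 3 of the 84 other cells. Wls, which carries Wnt proteins to the cell surface, was found in 9 of the 12 and in 2 of the 84. Cst3, the secreted protease inhibitor cystatin C, had medians of 143 UMIs in the 7 control cells and 265 UMIs in the 5 mutant cells with Ntn1, against 5 UMIs in the cells without it in either library.

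By contrast, Sfrp2, which encodes a secreted Wnt inhibitor of retinal progenitors, was low in most cells with Ntn1. It had a median of 6 UMIs in control cells with Ntn1 and of 1 UMI in mutant cells with Ntn1, against 28 and 37 UMIs in those without. The 2 exceptions were control cells with 1 Ntn1 UMI each, which had 101 and 114 Sfrp2 UMIs and no UMI of Pmel, Wls or Dlk1. Both groups shared Aldh1a3, a retinoic acid synthesising enzyme of the ventral retina, found in 12 of 12 and 61 of 84, and Nr2f1, an orphan nuclear receptor of the ventral optic cup and stalk, found in 12 of 12 and 74 of 84.

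**Figure D3:**
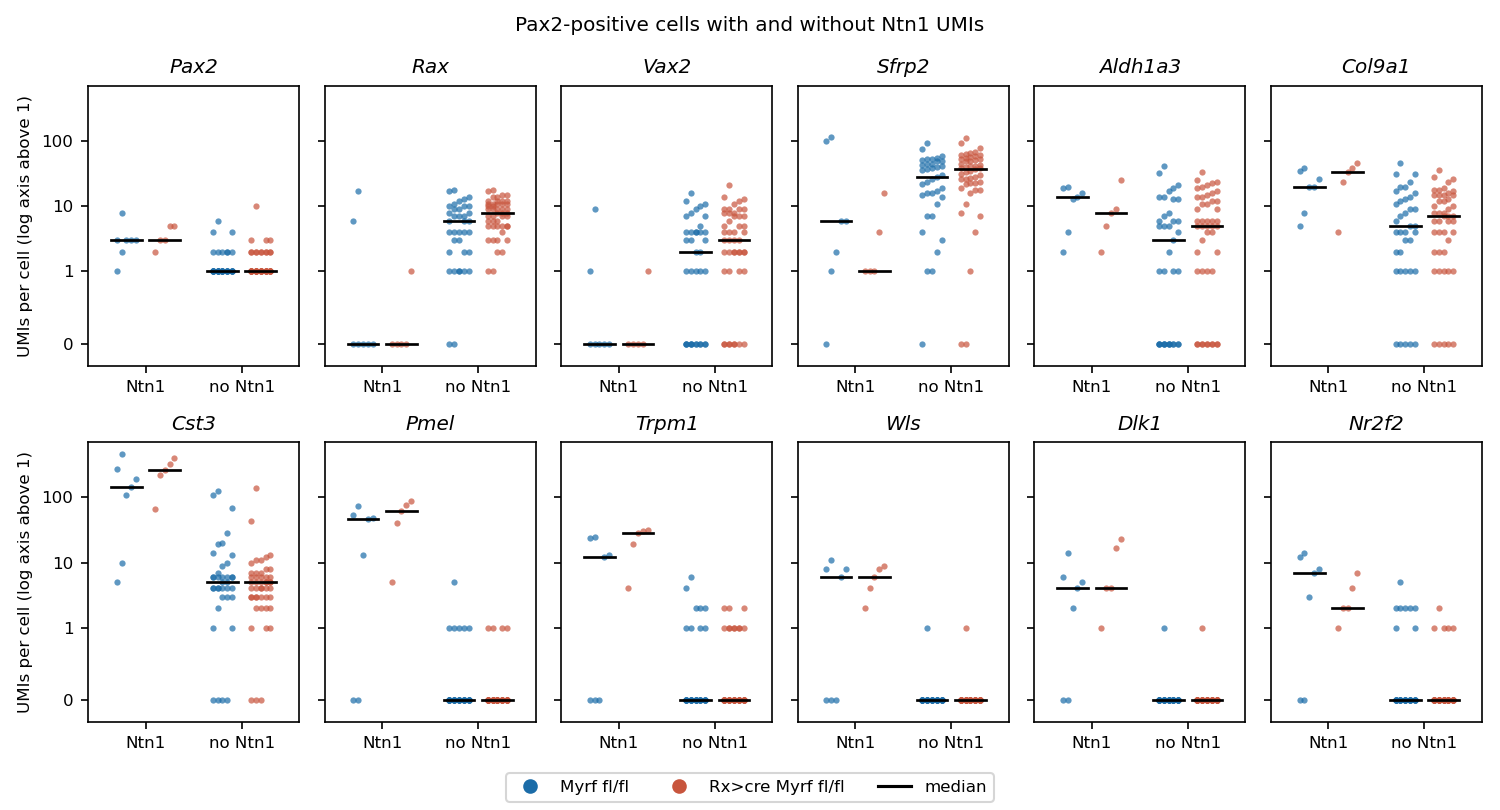
UMIs per cell (y axis, linear from 0 to 1 and logarithmic above) of 12 genes in Pax2-positive cells with Ntn1 (7 control and 5 mutant) and without it (37 control and 47 mutant). Each point is a cell of the Myrf fl/fl (blue) or Rx>cre Myrf fl/fl (red) library and black lines are medians. Pmel, Wls and Dlk1 have medians of 0 in cells without Ntn1, and Rax and Vax2 have medians of 0 in cells with it.

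The cells with Ntn1 had Pmel, Dct, Tyrp1, Otx2 and Tyr at lower levels than pigment cells did, and 3 control and 4 mutant cells of the 12 also met the pigment cell definition. Pmel, Dct, Tyrp1 and Tyr belong to that definition, so their higher levels in pigment cells follow in part from the choice of cells and are a description only. Pmel stood at 1615 CPM in the control and 2714 CPM in the mutant cells with Ntn1, against 5340 and 4303 CPM in 218 control and 132 mutant pigment cells. Dct, a melanin enzyme, stood at 109.5 and 310.5 CPM against 1770 and 1444 CPM, and Tyrp1, another, at 20.5 and 70.1 CPM against 273 and 200 CPM. Otx2, a transcription factor of the pigment epithelium, stood at 20.5 and 30.04 CPM against 295 and 236 CPM. Other pigment genes did not follow this in both libraries. Trpm1, a cation channel, stood at 507 and 1132 CPM against 1131 and 1154 CPM, Mitf, the transcription factor of pigment cells, at 34.2 and 130.2 CPM against 153 and 133 CPM, and Ptgds, the enzyme that makes prostaglandin D2, at 315 and 100.1 CPM against 269 and 128 CPM. Dlk1 was higher in the cells with Ntn1, at 212 and 491 CPM against 67.7 and 106 CPM. Cryab, Cst3 and Wls, which had marked the cells with Ntn1, were also common in pigment cells. Over both libraries they were found in 69.4%, 90.6% and 51.4% of 350 pigment cells. In the 12 cells with Ntn1 they were found in 83.3%, 100% and 75%. Their detection is therefore not particular to the cells with Ntn1. Tyr, the first enzyme of melanin synthesis, had no UMI in the 12 cells. Since Mlana was an exclusion gene, cells further along in pigmentation could not be members, and 5 control and 6 mutant Pax2-positive cells were left out on Mlana alone.

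Most of the 84 cells without Ntn1 carried Sfrp2 and Aldh1a3, which the rule had not used, in 81 and 61 cells, and 10 carried Pmel. The 21 of them with Vax1, 8 control and 13 mutant, shared this. Among these 21 cells, Sfrp2 was found in 21 and Aldh1a3 in 20, while Pmel was found in 1. Aldh1a3 stood at 699 CPM in the control and 812 CPM in the mutant cells, against 333 and 276 CPM in ventral Pax2-negative progenitors.

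A few cells carried other programmes. Hopx, a homeodomain-only protein, reached 14 UMIs in a control cell with 6 Pax2 and 124 Cst3 UMIs, and 19 UMIs in a mutant cell with 10 Pax2 and 138 Cst3 UMIs, which had the most Pax2 of all. Neither had Ntn1, and both kept Rax, at 10 and 8 UMIs. One control cell of 22321 UMIs held all 25 Myod1, 39 Myog, 39 Actc1, 46 Tnnt1 and 72 Acta2 UMIs of the control cells, which are genes of skeletal muscle precursors and muscle, and it had met the rule with 1 UMI each of Pax2, Six6 and Rax. It was kept, as the rule requires, and results that rest on it are given with and without it.

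The defining markers of astrocytes were not found, while genes that glia share with progenitors were. Gfap, S100b and Aqp4, markers of astrocytes, and Aldoc had 0 UMIs in the 96 cells, which allows up to 4.39 CPM in the control and 3.75 CPM in the mutant cells. Sox9, a transcription factor of glial and progenitor cells, was the only one of 6 compared astrocyte and glial genes that was at least 2-fold higher in both libraries, at 86.3 against 22.0 CPM in the control and 78.7 against 22.3 CPM in the mutant. Slc1a3, a glutamate transporter of radial glia and astrocytes, was found in 18 control and 14 mutant cells, at 43.9 against 20.05 CPM and 21.2 against 17.5 CPM. The list of 22 genes, which includes Vim and Nes, summed to 3495 against 2294 CPM in the control and 2711 against 2314 CPM in the mutant, and 8 of its genes in the control and 9 in the mutant were at 0. Shh, the hedgehog ligand, had 0 UMIs as well.

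Across genes, the comparison with Pax2-negative progenitors covered 5163 genes with a mean level of at least 20 CPM over the groups, without the rule genes. A ratio was taken after 1 UMI had been added to each sum, and a gene was counted when it differed at least 2-fold in the same direction in both libraries. By this count 57 genes were higher in the Pax2-positive cells, 1.10% of those compared, and 15 were lower, 0.291%. The median log2 ratio of all genes compared was 0.08 in each library. With comparison cells weighted to the depth of the Pax2-positive cells the counts were 58 and 14. Because the filter on level took in the Pax2-positive cells, a gene could pass it through being high in them alone. With the filter on the Pax2-negative progenitors alone, a step added after the data had been seen, 22 genes were higher and 24 lower. The cells had been chosen on these same counts, so the figures describe the cells and no test was made.

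The genes highest in Pax2-positive cells were mostly those of the cells with Ntn1. They were, from the top of the ranking by the smaller log2 ratio, Ptgds, Dlk1, Cryab, Wls, S100a1, Hopx, Pmel, Meg3, Cst3, Bmp7, Trpm1 and Tmem37. Apart from Pmel, Cst3 and Trpm1, these genes had passed the filter on level only through the Pax2-positive cells, so their place follows in part from the choice of cells. Dlk1 stood at 46.8 CPM (32.0 to 66.1) against 3.13 CPM in the control, a log2 ratio of 3.91, and at 62.4 CPM (46.3 to 82.3) against 3.21 CPM in the mutant, 4.27. Cells with Ntn1 held 96.9% and 98.0% of these Dlk1 UMIs, 95.9% and 98.6% of the Pmel UMIs, 97.1% and 96.7% of the Wls UMIs, and 69.9% and 76.3% of the Cst3 UMIs. When the 12 cells with Ntn1 were left out, a step chosen after the data had been seen, the log2 ratio of Pmel turned from 2.62 to -1.52 in the control and from 3.39 to -2.21 in the mutant, and that of Wls from 3.65 to -0.13 and from 3.73 to -0.03, on 1 Wls UMI in each library. Without them 33 genes were higher and 14 lower, and 24 of the 33 were also higher with all cells.

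**Figure D4:**
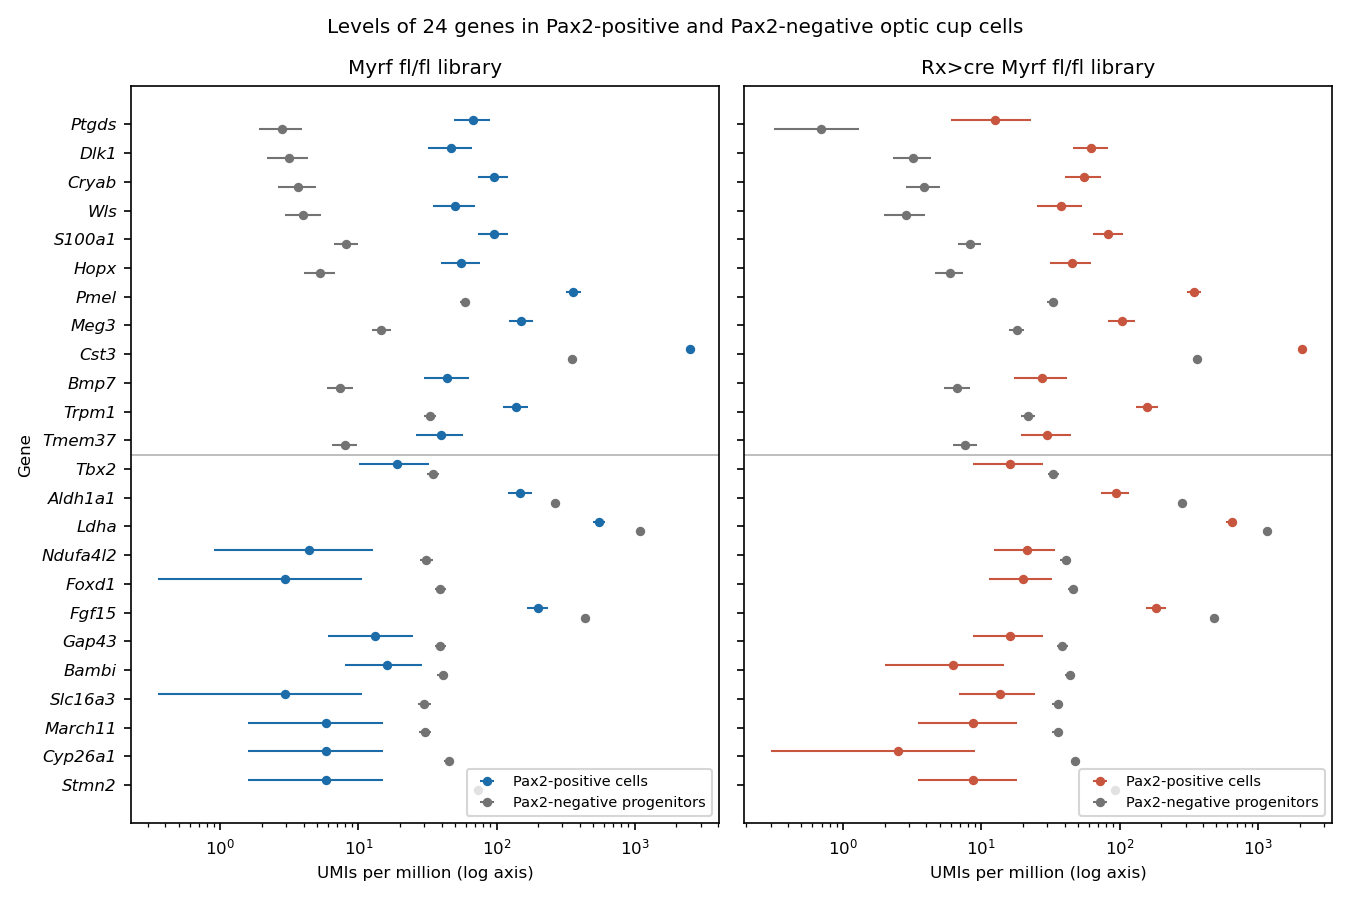
Levels (x axis, CPM on a log scale) of the 12 genes highest (above the line) and the 12 lowest (below it) in Pax2-positive cells (coloured) and in Pax2-negative progenitors (grey) of the Myrf fl/fl (left) and Rx>cre Myrf fl/fl (right) libraries. Points are CPM of summed UMIs and bars exact 95% Poisson intervals. The genes were picked on their ratios in these same cells, so a distance between the groups is favoured by the choice and was not tested.

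Genes of the stalk, the fissure and the ventral retina that the rule had not used were more often counted as higher than as lower, beside 1.10% of all genes compared that were higher. Part of this count rested on the cells with Ntn1, and the ciliary margin and pigment lists below had similar shares. Of 15 listed, 11 were compared, 8 of them were counted as higher, 1 as lower and 2 as neither, and the median log2 ratio was 1.40 in the control and 1.68 in the mutant. Without the cells with Ntn1, Bmpr1b, Aldh1a3, Smoc1 and Cyp1b1 were counted as higher, 4 of 9 compared, and none as lower. In this setting 33 of all 5123 genes compared were higher. Bmpr1b, Smoc1 and Cyp1b1 had passed the filter on level only through the Pax2-positive cells. Nr2f1 then had log2 ratios of 0.67 and 0.92, Tenm3 of 0.97 and 1.08, and Zfp503, no longer compared, of 0.57 and -0.0746. Bmp7 kept ratios of 2.39 and 1.85 but fell under the minimum level. With the filter on the Pax2-negative progenitors alone, 6 were compared, of which Aldh1a3, Tenm3 and Nr2f1 were higher and Foxd1 lower. Aldh1a3 was thus the only listed gene counted as higher both with this filter and without the cells with Ntn1. Over all cells, Aldh1a3 stood at 489 against 220 CPM in the control, a log2 ratio of 1.15, and at 536 against 164 CPM in the mutant, 1.71. Bmp7, a bone morphogenetic protein needed for closure of the fissure, stood at 43.9 against 7.38 CPM and at 27.5 against 6.66 CPM. Smoc1, a secreted matrix protein that antagonises BMP signals, stood at 60.0 against 20.1 CPM and at 73.7 against 12.8 CPM. Zfp503, a zinc finger protein of the optic fissure, stood at 60.0 against 12.4 CPM and at 43.7 against 11.9 CPM. Bmpr1b, Tenm3, Nr2f1 and Cyp1b1 were the other 4. Foxd1, a forkhead factor of the temporal retina, was the gene that was lower, at 2.93 against 39.2 CPM in the control and 19.98 against 45.7 CPM in the mutant, with log2 ratios of -4.40 and -0.92 without the cells with Ntn1.

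Several of these differences were smaller against ventral progenitors alone. Nr2f1 stood at 524 CPM in the control and 501 CPM in the mutant Pax2-positive cells, against 258 and 237 CPM in all Pax2-negative progenitors and 314 and 309 CPM in the ventral ones. Bmpr1b, a BMP receptor of the ventral retina, stood at 46.8 and 47.5 CPM, against 19.3 and 21.7 CPM in the ventral cells. Aldh1a1, the dorsal retinoic acid synthesising enzyme, stood at 148 and 93.6 CPM in the Pax2-positive cells and at 264 and 284 CPM in all Pax2-negative progenitors, but at 55.4 and 68.6 CPM in the ventral ones and 1607 CPM in the control dorsal ones. Tbx5 had no UMI in the 96 cells.

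Genes of the neural retina progenitor stood near the levels of Pax2-negative progenitors. Of 12 listed and compared, 11 were counted as neither higher nor lower and Fgf15, an FGF family ligand, was lower, at 199 against 440 CPM in the control and 184 against 478 CPM in the mutant. Pax6, which Pax2 is known to oppose, stood at 339 against 447 CPM and at 306 against 418 CPM, log2 ratios of -0.39 and -0.44. Lhx2, a homeobox factor of the eye field, stood at 386 against 259 CPM and at 410 against 241 CPM, short of 2-fold.

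Genes of the ciliary margin, the rim where the neural retina meets the pigment layer, were counted as higher in 4 of 5 compared, and in 2 of 4 without the cells with Ntn1. The 4 were Col9a1, a collagen chain, Wls, the cyclin gene Ccnd2 and Otx1, a homeobox factor. Col9a1 stood at 714 against 273 CPM in the control and 717 against 230 CPM in the mutant. Without the cells with Ntn1, Wls was no longer compared, Otx1 had log2 ratios of 0.76 and 0.98, Ccnd2 of 1.16 and 1.12 and Col9a1 of 1.19 and 1.41. Wls and Otx1 had also passed the filter on level only through the Pax2-positive cells. Of 4 compared pigment epithelium genes, 3 were higher, namely Ptgds, Trpm1 and Pmel. None of the 3 was counted as higher without the cells with Ntn1, where Pmel was lower. Ptgds had passed the filter only through the Pax2-positive cells. The pigment list as a whole summed to 677 CPM in control and 607 CPM in mutant Pax2-positive cells, against 208 and 90.7 CPM in the Pax2-negative progenitors.

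Signalling pathways gave few counts. In retinoic acid metabolism, Aldh1a3, the retinol dehydrogenase Rdh10 and the retinol transporter Stra6 were higher and the degrading enzyme Cyp26a1 lower, of 9 compared. Cyp26a1 had 4 UMIs in 44 control and 2 UMIs in 52 mutant cells, 5.85 CPM (1.59 to 14.98) and 2.50 CPM (0.302 to 9.02), against 45.3 and 47.8 CPM in Pax2-negative progenitors and 9.70 CPM in the ventral control ones. Without the cells with Ntn1, Aldh1a3 remained the higher gene of these 9, and Rdh10 and Stra6 had log2 ratios of 1.51 and 0.97 and of 0.83 and 1.18. In the BMP and TGF-beta pathways Bmp7 and Bmpr1b were higher and Bambi, a decoy receptor, lower, of 11. Bmp7 and Bmpr1b had passed the filter on level only through the Pax2-positive cells. With the filter on the Pax2-negative progenitors alone, 0 of 9 were higher and Bambi was lower. Bambi stood at 16.1 CPM in the control and 6.24 CPM in the mutant Pax2-positive cells, against 40.8 and 43.6 CPM in all Pax2-negative progenitors, but at 10.8 and 7.94 CPM in the ventral ones and 134 and 179 CPM in the dorsal ones. Without the cells with Ntn1, its log2 ratio in the control was -0.87, and it was not counted. Among Wnt genes Wls alone was counted, of 9, and it too had passed the filter only through the Pax2-positive cells. Among FGF genes Fgf15 alone was counted, of 6. None of 10 axon guidance genes, 6 Notch genes, 8 neurogenic genes or 3 hedgehog genes was counted in either direction.

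A pair of neuronal genes, Stmn2 and Gap43, was lower. Stmn2, a tubulin-binding protein of growing axons, had 4 UMIs in 3 control and 7 UMIs in 7 mutant cells, or 5.85 and 8.74 CPM, against 73.8 and 91.7 CPM in Pax2-negative progenitors. Gap43, a growth cone protein, stood at 13.2 against 39.1 CPM and at 16.2 against 38.4 CPM. These 2 were counted of 4 compared ganglion cell and neuron genes, Stmn2 alone without the cells with Ntn1, and 4 of 6, with Sncg and Nefl, when the filter was on the Pax2-negative progenitors alone. The 7 globin genes were also lower and made up 7 of the 15 genes counted as lower. Of the globin UMIs in the comparison cells, 94.7% in the control and 97.0% in the mutant lay in 4 and 21 cells with over 20% globin, of which there were none among the Pax2-positive cells. Medians of globin per cell were 0.0286% and 0.0637% in the Pax2-positive cells and 0.0413% and 0.0802% in the comparison cells.

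Of the remaining genes lowest in Pax2-positive cells, Slc16a3 and March11 were counted as lower. Slc16a3, a lactate transporter, had 2 UMIs in 44 control and 11 UMIs in 52 mutant cells, 2.93 against 30.04 CPM and 13.7 against 35.8 CPM. Ldha, lactate dehydrogenase, stood at 556 against 1090 CPM and at 644 against 1160 CPM, short of 2-fold, as were Ndufa4l2, Aldh1a1 and Tbx2 in at least 1 library. March11 stood at 5.85 against 30.4 CPM and 8.74 against 35.8 CPM.

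Markers of other cells were few. The mesenchymal list outside the rule summed to 68.8 CPM in the control and 56.2 CPM in the mutant cells, against 56.1 and 45.9 CPM in Pax2-negative progenitors. Col1a2 was the 1 gene of it that was compared and was higher, but it had passed the filter on level only through the Pax2-positive cells. Endothelial and pericyte genes summed to 62.9 and 63.7 CPM against 81.1 and 112 CPM, and macrophage genes to 1.46 and 1.25 CPM against 68.7 and 76.9 CPM. The muscle list stood at 219 CPM in the control, where the Myod1-positive cell held it, and at 1.25 CPM in the mutant. The part of these genes in the results was not tested.

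The share of cells scored as cycling was lower in value among the Pax2-positive cells. After thinning to 3000 UMIs, 31 of 42 control and 36 of 51 mutant cells were assigned to S or G2/M phase, 73.8% (58.0 to 86.1) and 70.6% (56.2 to 82.5). In Pax2-negative progenitors the shares were 86.8% (84.3 to 89.0) and 84.1% (81.7 to 86.3), so the intervals overlapped in both libraries at this depth. After thinning to 2000 UMIs the Pax2-positive shares were 66.7% (50.5 to 80.4) and 62.7% (48.1 to 75.9). Those of the progenitors were then 83.8% (81.1 to 86.2) and 81.4% (78.9 to 83.7), and the intervals lay apart. After thinning to 5000 UMIs the intervals overlapped in the control and lay apart in the mutant. Without thinning the shares were 65.9% (50.1 to 79.5) and 65.4% (50.9 to 78.0) against 86.7% (84.3 to 88.8) and 86.5% (84.3 to 88.5), and the intervals lay apart. The cells with Ntn1 were assigned to S or G2/M in 3 of 7 control and 2 of 5 mutant cells. No S phase gene of 37 and no G2/M gene of 45 was counted as higher or lower, and the median log2 ratio of the G2/M genes was -0.41 in the control and -0.55 in the mutant.

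Myrf was then examined in each library, since it was the deleted gene. No Myrf UMI was found in the Pax2-positive cells of either library, including controls, which allows up to 4.39 CPM in the control and 3.75 CPM in the mutant cells. Control pigment cells had 62.9 CPM of Myrf (53.4 to 73.6) and mutant pigment cells 17.6 CPM (11.96 to 24.99), and over all kept cells at 4.02 and 1.51 CPM. Tmem98, whose product binds Myrf, had 10 UMIs in the Pax2-positive cells of each library. A loss of Myrf from these cells could therefore not be read from their counts.

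The libraries differed in few genes of the Pax2-positive cells. Among 3733 genes with at least 50 UMIs in both groups of cells together, 13 were at least 2-fold higher in the mutant, 0.348%, and 20 at least 2-fold lower, 0.536%, and the median log2 ratio of mutant over control was -0.04. Of the 13, 6 were globin genes, whose log2 ratios had a median of 1.90 in the Pax2-positive cells and 1.80 in the Pax2-negative progenitors. Without the Myod1-positive control cell, which was left out after the data had been seen, the counts were 10 and 16. By sex-linked genes, 18 control and 18 mutant cells were assigned to female embryos, 17 and 19 to male embryos, and 9 and 15 to neither.

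After Acta2 and Ptgds, which lay in 1 and 3 control cells, the largest fall was that of Nr2f2 (chromosome 7, 70351944 to 70366735, GRCm38), an orphan nuclear receptor that acts with Nr2f1 in the optic stalk and pigment epithelium. It had 61 UMIs in 13 of 44 control and 22 UMIs in 10 of 52 mutant cells, 89.2 against 27.5 CPM, a log2 ratio of -1.66 (-2.47 to -0.98). Pax2-negative progenitors had 34.3 and 30.8 CPM, a log2 ratio of -0.16 (-0.36 to 0.05). Per cell with Ntn1, Nr2f2 had 0 to 14 UMIs with a median of 7 in the control and 1 to 7 UMIs with a median of 2 in the mutant, so the cells of the libraries overlapped. Of its UMIs, these cells held 72.1% (control) and 72.7% (mutant), and the ratio was -1.75 without them.

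The largest falls in the mutant beside that of Nr2f2 were those of Acta2, Ptgds, Wfdc2, Scg5, 1110012L19Rik, Sept4 and Gadd45g, and 12 further genes were lower by at least 2-fold. Acta2 had 72 UMIs in 1 control cell and none in the mutant. Ptgds had 46 UMIs in 3 control cells, 78.3% of them in 1 cell, and 10 UMIs in 3 mutant cells, and its log2 ratio of -2.32 became 0.61 at a mitochondrial limit of 5%. For Gadd45g, a stress and cell cycle gene, 22 of the 35 control UMIs lay in the Myod1-positive cell, and the log2 ratio of -1.23 became 0.09 without it. Wfdc2 and Scg5 were lower in Pax2-negative progenitors too, by log2 ratios of -0.92 and -0.76 against -1.39 and -1.35 in the Pax2-positive cells.

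The largest rises in the mutant were ranked among genes with at least 50 UMIs, with globins left out. In order of size they were those of Pop4, Wdr55, Ung, Gm28050, Zdhhc3, Tubb3, Eif3j1 and Tmem42, and the last was short of 2-fold. Pop4, a subunit of RNase P, stood at 29.3 CPM in the control and 84.9 CPM in the mutant cells, with a log2 ratio of 1.49 (0.80 to 2.33), and Pax2-negative progenitors had a ratio of 1.13. Eif3j1, a translation initiation factor, had 1.02 (0.52 to 1.57) and 0.70. Eif3j1 has a close paralog, Eif3j2, and the non-coding Gm28050 overlaps Gm28039 on the same strand, so the share of reads given to each is uncertain. Ung, which removes uracil from DNA, stood at 36.6 and 83.7 CPM, a ratio of 1.16 (0.51 to 1.92), against 0.21 in the progenitors. Tubb3, the neuronal tubulin, stood at 38.0 and 79.9 CPM, a ratio of 1.04 (0.39 to 1.79), and at 99.8 and 116 CPM in the progenitors. A single mutant cell held 34.4% of its mutant UMIs, and among cells of male embryos the ratio was -0.60. The ratios of Zdhhc3 and Gm28050, 1.06 and 1.13, became -0.04 and -0.19 when the rule was applied after thinning. Wdfy1, an endosomal adaptor, had 3 UMIs in control and 44 in mutant cells, 4.39 (0.905 to 12.8) and 54.9 CPM (39.9 to 73.8), nearly the levels of Pax2-negative progenitors, 4.95 and 55.0 CPM. Its rise was larger than that of Pop4, but it fell short of the minimum of 50 UMIs and was not ranked.

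**Figure D5:**
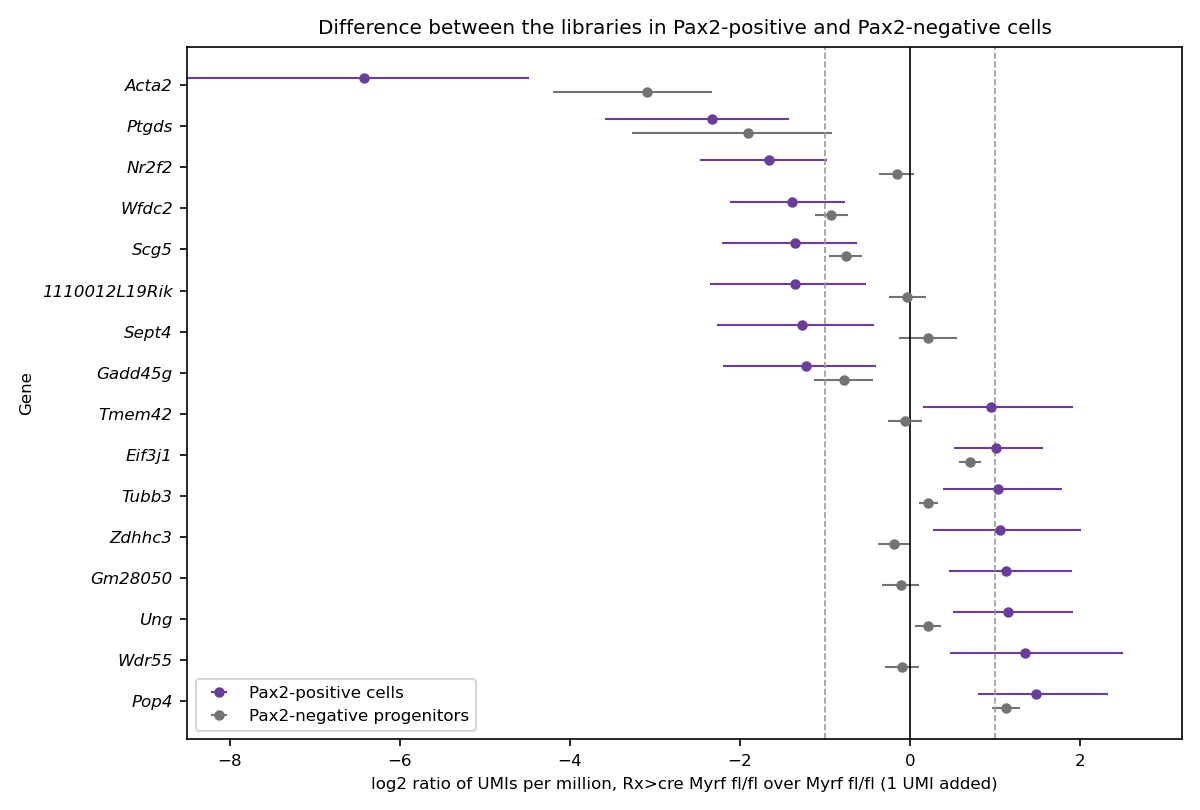
log2 ratio of CPM, mutant over control library (x axis), of the 8 genes with the largest falls and the 8 with the largest rises in Pax2-positive cells (purple), with Pax2-negative progenitors in grey. Bars are exact 95% conditional binomial intervals, that of Acta2 runs past the left edge, and dashed lines mark 2-fold. The 16 genes were picked on their ratios in the Pax2-positive cells, so a distance between purple and grey is favoured by the choice and was not tested.

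Lists of genes differed little between the libraries. Of 10 stalk, fissure and ventral genes outside the rule with enough UMIs, Nr2f2 was lower and none higher, with a median log2 ratio of -0.17 against -0.14 in the Pax2-negative progenitors. Of 11 progenitor genes none was counted, with a median of -0.05. Of 5 ciliary margin genes none was counted, with a median of -0.40 against -0.44. Of 9 Wnt genes, 8 BMP and TGF-beta genes and 7 retinoic acid genes none was counted. These counts stand beside 0.348% and 0.536% of all genes compared and say nothing particular to a list.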

How the data were processed

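Single cells of e13.5 eye cups were measured in 2 libraries, 1 per genotype, with 10x 3' chemistry. Per the labels, the authors used Cell Ranger 7.1.0 on mm10, and the deposited values are raw UMI counts of each gene in each called cell. The submitters' notes also name Seurat 4.1.1, and whether intronic reads were counted is not given in the sources used here. The members, gene lists and comparisons were chosen with earlier results of these data known. From the counts, UMIs were summed over cells and compared as CPM in Python 3.11.15 with scipy 1.17.1, as log2 ratios with 1 UMI added to each sum and exact conditional binomial intervals. The added UMI weighs more in the smaller sum, which raises the ratios of genes with few UMIs in the members.

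Genes were compared at a mean of at least 20 CPM, or at least 50 UMIs between libraries. The genes named were the 12 highest and 12 lowest by the smaller absolute log2 ratio of the libraries with the same sign in both, the 8 largest falls and 8 largest rises between libraries (leaving out rule genes, Xist, Tsix and Y-linked genes, globins and genes of mitochondria and ribosomes), the rule genes, Myrf, Tmem98, Wdfy1, and list genes past 2-fold. Other genes, such as those of single cells, were named after their values were seen. Scrublet (scanpy 1.11.5, with 5% doublets assumed) marked doublets, which were kept, and cell cycle phases scored after thinning to 3000 UMIs. The code was tested on simulated counts. Alternatives varied cell filters, the rule, the comparison cells, the gene filters, the totals and the sex of the cells. Leaving out the cells with Ntn1 or the cell with Acta2, and filtering on the comparison cells alone, were added after seeing the data. Some results are not reported here.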

Additional observations from a re-analysis of the deposited data

How the results depend on the processing

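The share of members stayed within its interval with doublets left out, a mitochondrial limit of 5%, 3 of 6 markers or an upper limit of 20000 UMIs per cell. It was 0.167% of control and 0.0898% of mutant cells with an upper limit of 2000 UMIs per cell, as the study's methods give it, which left 2 and 1 members, so gene and cycling comparisons were not run. With 2 or more Pax2 UMIs required it was 0.272% and 0.298%, with the rule applied after thinning to 3000 UMIs 0.526% and 0.336%, and with up to 1 UMI of each exclusion gene allowed 1.14% and 1.10%. The cycling share was 57.1% and 52.6% with 2 or more Pax2 UMIs.

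The genes higher in Pax2-positive cells than in Pax2-negative progenitors numbered 191 with 2 or more Pax2 UMIs, 86 with the rule after thinning, 86 with totals that left out mitochondrial, globin and ribosomal genes, 33 without cells with Ntn1, 22 with the filter on the progenitors alone, and 5443 without a filter on level, where the 1 UMI added to small sums makes nearly all undetected genes count as higher. The genes lower numbered 37, 23 and 77 with 2 or more Pax2 UMIs, the rule after thinning and no filter, 24 with the filter on the progenitors alone, and 7 with an upper limit of 20000 UMIs. Between libraries, 23 genes were higher with up to 1 exclusion UMI and 5 with the rule after thinning, 12 were lower with 2 or more Pax2 UMIs, 5 and 3 were higher and lower with a minimum of 100 UMIs, and 31 and 42 with means of CPM per cell.

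Without the cells with Ntn1, the log2 ratio over progenitors turned negative for Ptgds (-0.62, control), Dlk1 (-0.21, mutant), Cryab (-1.45, mutant), Meg3 (-2.08, mutant), Trpm1 (-0.0329, mutant), Wls (-0.13 and -0.0279) and Pmel (-1.52 and -2.21). Those of Ptgds, Dlk1, Cryab and Wls rest on 0 or 1 UMI, so the added UMI sets much of their size and sign, and their intervals and that of Trpm1 span 0. Between libraries the sign turned for Ptgds (0.61 at a mitochondrial limit of 5%), Tubb3 (-0.60 in male embryos), Zdhhc3 (-0.0416) and Gm28050 (-0.19) with the rule after thinning, and Gadd45g, at 0.21 (20000 UMIs), 1.00 (2 or more Pax2 UMIs), 0.0656 (3 of 6 markers), 0.86 (rule after thinning) and 0.0860 (without the cell with Acta2). The cause was not tested. Of the values of named genes under alternatives, 488 against progenitors and 196 between libraries stayed within their counting interval, 127 and 12 moved beyond it and 9 and 9 turned sign. No paired analysis was possible because each genotype is 1 library and the labels give no replicate numbers.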
